A study of Mus musculus with 4 samples.

Results

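The genes described here are 38 genes of the unfolded protein response and the integrated stress response, measured in mouse macrophages of 2 genotypes with and without bacterial lipopolysaccharide (LPS). They were chosen by name and function with earlier results of these data known, no measured value entered the rule, and every probe whose accession belongs to one of the 38 symbols was taken. That gave 49 of the 39429 probes on the array. Of these, 48 passed the filter on dim probes, the exception being the second probe of Dnajb11, and all 38 genes were therefore among the 23570 genes or accessions tested. The probe used for each gene was well above background in both channels on all 4 arrays. The genes fall into 5 named targets of the transcription factor ATF4, 8 other genes of the integrated stress response, 4 genes for the stress sensors and XBP1, 14 chaperone genes of the endoplasmic reticulum (ER), 6 genes of ER-associated degradation and 1 subunit of the translocon.

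The cells were grown from the bone marrow of 6-week-old male mice over 7 days in the growth factor GM-CSF (25 ng/ml). The mice were wildtype or Cdk5r1 knockout, and the labels give both the strain name B6.129S4-Cdk5r1tm1Lht/J. Cdk5r1 encodes p35, which activates the kinase CDK5. Basal cultures received no LPS and the others received 100 ng/ml for 6 h. Each of the 4 two-colour arrays, 2 basal and 2 LPS, paired wildtype RNA, labelled with Cy3, and knockout RNA, labelled with Cy5. The labels call the arrays biological replicates but name no animals, so every p-value measures the spread between these arrays only. Dyes were never swapped, so in a knockout to wildtype ratio a dye effect and the genotype cannot be told apart. A constant dye effect cancels when LPS is set against basal within a channel, and in the difference of the ratios between conditions.

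The log2 ratio of Cdk5r1 was -0.37 and -0.59 at rest and -2.55 and -2.29 under LPS, so the knockout channel was the lower on every array. Of 10 macrophage markers, 9 had a probe and all 9 passed the filter, while Cd68 had no probe used here. Of the 9, 1 was lower in the knockout at rest and 3 were lower under LPS, and 0 were higher. Their summed intensity at rest was 199000 to 201200 in wildtype and 197400 to 239600 in knockout cells. Under LPS it was 128700 to 133600 in wildtype and 100600 to 126500 in knockout cells. Of 9 neutrophil markers with a probe, 6 were lower in the knockout in each condition. The summed intensity of the neutrophil list ran from 107400 to 170700 at rest and from 281900 to 315000 under LPS in wildtype cells, against 49370 to 79890 and 104200 to 106100 in knockout cells. Of 9 B and plasma cell markers that passed the filter, 0 differed between the genotypes at rest and 2 were higher in the knockout under LPS. Their summed intensity lay between 5751 and 10560 on all arrays, and the plasma cell receptor gene Tnfrsf17 was never above background. Of 7 dendritic cell markers 1 was higher in the knockout at rest, and 3 were higher and 1 lower under LPS. The summed intensity of the dendritic list in wildtype cells ran from 450300 to 523400 at rest and from 547200 to 574800 under LPS. In knockout cells it ran from 591400 to 598400 and from 728700 to 744100, above the wildtype range in each condition. In both conditions 2 of 5 eosinophil markers were lower and 2 of 5 mast cell and basophil markers were higher. Of 6 T and NK cell markers 0 differed in either condition, and of 5 stromal markers 0 differed at rest and 1 was higher and 1 lower under LPS. Of 3 erythroid markers that passed the filter 0 differed in either condition. The summed intensity of the erythroid list under LPS was nevertheless 1965 to 3204 in wildtype and 7392 to 11980 in knockout cells. The part of such other cells in the genotype values below was not tested. In these bulk samples, fewer cells of a type and less RNA per cell cannot be told apart.

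The unfolded protein response is started by 3 sensors in the ER membrane. IRE1, encoded by Ern1, splices the mRNA of Xbp1 into the form that encodes an active transcription factor. ATF6 is cut to release a transcription factor, and both XBP1 and ATF6 act on genes for ER chaperones and for ER-associated degradation, which removes misfolded proteins. PERK, encoded by Eif2ak3, phosphorylates the translation factor eIF2alpha, a step it shares with kinases that respond to amino acid shortage, viral RNA and haem shortage. This integrated stress response lowers protein synthesis in general while ATF4 is translated more, and ATF4 raises genes for amino acid synthesis and transport and for stress signalling. LPS engages Toll-like receptor 4 and is known to engage the IRE1 branch in macrophages. The arrays measure mRNA only, so neither splicing of Xbp1 nor translation of Atf4 is seen here.

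LPS changed members of the pathway in both directions in each genotype. In wildtype cells 7 of the 38 genes rose (18.4%, against 18.3% of all genes) and 9 fell (23.7%, against 23.5%). In knockout cells 6 rose (15.8%, against 19.0% of all genes) and 10 fell (26.3%, against 22.8%). These 16 of 38 in each genotype, 42.1%, stand beside 41.8% of all genes in wildtype cells and 41.8% in knockout cells, so the share that changed was that of the array as a whole. All calls are adjusted p-values under 0.05 from limma, adjusted over all 23570 genes. With levels scaled to the 75th percentile the counts were 12 higher and 7 lower in wildtype cells, and 10 higher and 8 lower in knockout cells. Of all 23570 genes, 10921 were then higher and 4197 lower in wildtype cells, and 11075 higher and 4148 lower in knockout cells. All 4 sensor and XBP1 genes changed, 3 of them downward. None of the 5 ATF4 targets passed the test in either genotype. Among the 20 chaperone and degradation genes, 4 rose and 5 fell in each genotype. The difference between these groups was not tested, and the ATF4 targets had the larger standard errors.

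**Figure D1:**
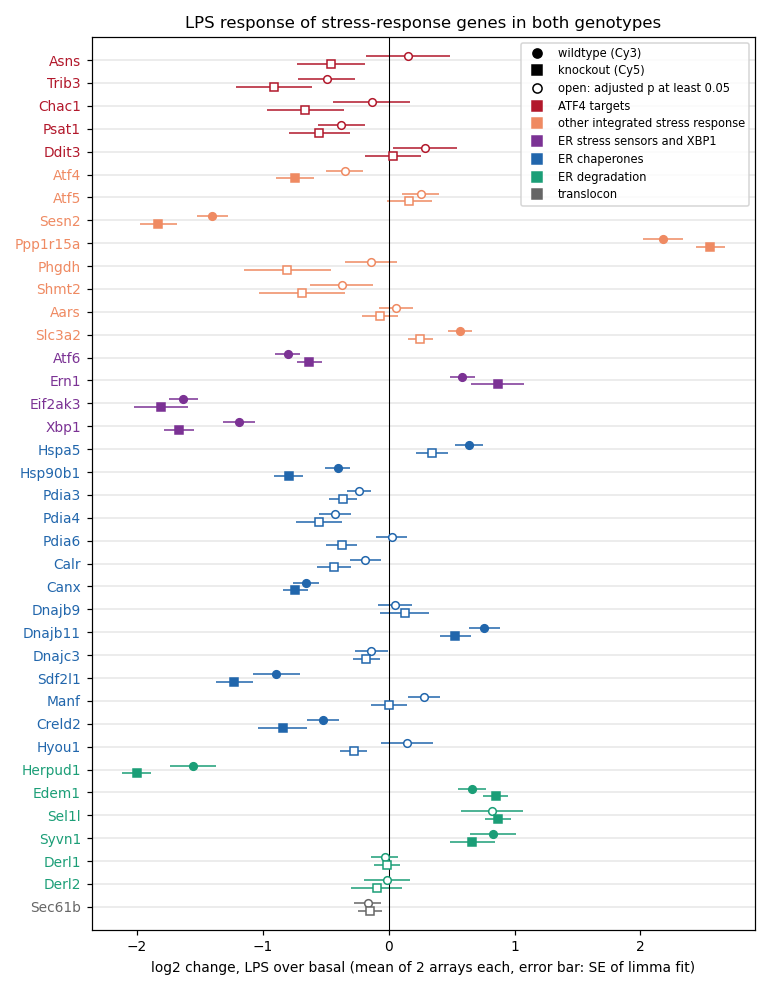
Log2 change from basal to LPS for the 38 genes in wildtype (circles) and knockout (squares) cells, with the standard error (SE) of the fit on 2 arrays per condition; filled points passed at an adjusted p under 0.05 and colours give the gene's role. Ppp1r15a stands highest at 2.18 and 2.56, Herpud1, Sesn2 and Eif2ak3 stand lowest, and the ATF4 targets have open symbols and wide error bars.

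The most raised gene was Ppp1r15a, which encodes GADD34, the inducible subunit of the phosphatase that reverses eIF2alpha phosphorylation. Its normalised log2 level, a scale on which arrays can be compared for one probe but not probes with each other, was 11.65 and 11.28 at rest and 13.72 and 13.57 under LPS in wildtype cells. In knockout cells the levels were 11.76 and 11.57, then 14.24 and 14.21. The LPS levels lay above the basal levels in both channels with no overlap. The rise was 2.18 ± 0.16 (log2 ± SE, n = 2 arrays per condition; 4.53-fold, adjusted p = 0.00123) in wildtype cells and 2.56 ± 0.12 (5.88-fold, adjusted p = 0.000769) in knockout cells.

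The sensor genes split. Ern1 rose by 0.59 ± 0.10 in wildtype cells (adjusted p = 0.0113) and by 0.86 ± 0.21 in knockout cells (adjusted p = 0.032), though neither call held when either basal array was left out (adjusted p up to 0.0815 and 0.145). Eif2ak3 went the other way, with wildtype levels of 10.90 and 10.74 at rest and 9.11 and 9.26 under LPS, and knockout levels of 11.16 and 10.93, then 8.96 and 9.50. The log2 change was -1.63 ± 0.12 in wildtype cells (adjusted p = 0.00117) and -1.81 ± 0.21 in knockout cells (adjusted p = 0.00491). Atf6 fell as well, with log2 changes of -0.80 ± 0.10 in wildtype cells (adjusted p = 0.0046) and -0.63 ± 0.10 in knockout cells (adjusted p = 0.00933), the latter call being lost without either basal array (adjusted p up to 0.0749).

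Xbp1 mRNA was also lower under LPS. Its wildtype levels were 15.58 and 15.80 at rest and 14.41 and 14.58 under LPS, and its knockout levels were 15.94 and 15.93, then 14.16 and 14.37. Both LPS levels lay below both basal levels in each channel. The log2 change was -1.19 ± 0.13 (adjusted p = 0.003) in wildtype and -1.67 ± 0.12 (adjusted p = 0.00157) in knockout cells. With 75th percentile scaling the wildtype change shrank to -0.54 and the knockout change to -1.07, and both still passed. A single probe stood for Xbp1, and the files do not say whether it reads the spliced or the unspliced mRNA.

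Of the integrated stress response genes outside the named ATF4 targets, Sesn2, which encodes sestrin 2, a leucine sensor that restrains mTORC1, fell in both genotypes. Its wildtype levels went from 11.37 and 11.44 to 10.13 and 9.88 (a log2 change of -1.40 ± 0.12, adjusted p = 0.00184), and its knockout levels from 11.51 and 11.84 to 9.88 and 9.81 (-1.83 ± 0.15, adjusted p = 0.00205). Slc3a2, the heavy chain shared by several amino acid transporters, rose by 0.57 ± 0.09 in wildtype cells (adjusted p = 0.00972, and 0.0709 at most without a basal array) and stood at 0.25 ± 0.10 in knockout cells (adjusted p = 0.11), where it passed at 0.80 with 75th percentile scaling. Atf4 itself fell by 0.75 ± 0.15 in knockout cells (adjusted p = 0.0194) and stood at -0.35 ± 0.14 in wildtype cells (adjusted p = 0.117). A dimmer second probe for Atf4 gave 0.21 ± 0.11 and 0.25 ± 0.20, so the fall of Atf4 rests on 1 of 2 probes, and it was not called without basal replicate 2 or with levels scaled to the 75th percentile. Atf5, Phgdh, Shmt2 and Aars did not pass in either genotype, with log2 changes between -0.81 for Phgdh in knockout cells and 0.25 for Atf5 in wildtype cells.

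The 5 ATF4 targets are Asns (asparagine synthetase), Trib3 (a pseudokinase that restrains ATF4 and CHOP), Chac1 (which degrades glutathione), Psat1 (serine synthesis) and Ddit3 (the transcription factor CHOP). Promoters are shown for Asns and Chac1, which are the ATF4 targets that differ between the genotypes under LPS below and which carry a match upstream of the start site. They are the 250 bases before the start in the RefSeq promoter table of build GRCm38.p6, written 5′ to 3′ on the gene's strand, and capitals mark the core of the CEBP-ATF response element, TGATGNAA, searched on both strands. Asns lies at chr6:7693210-7693459, minus strand, and Chac1 at chr2:119350992-119351241, plus strand.
Asns: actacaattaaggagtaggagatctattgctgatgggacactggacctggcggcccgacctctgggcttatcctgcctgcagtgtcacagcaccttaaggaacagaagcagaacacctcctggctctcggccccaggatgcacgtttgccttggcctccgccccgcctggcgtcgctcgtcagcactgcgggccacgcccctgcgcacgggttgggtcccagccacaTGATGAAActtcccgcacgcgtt
Chac1: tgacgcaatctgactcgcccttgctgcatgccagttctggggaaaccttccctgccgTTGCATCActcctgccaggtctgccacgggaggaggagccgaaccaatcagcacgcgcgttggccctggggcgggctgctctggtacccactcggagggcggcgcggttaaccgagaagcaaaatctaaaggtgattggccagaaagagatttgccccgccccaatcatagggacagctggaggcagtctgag
In windows from 250 bases before to 50 bases after the start, this core was found in 5 of 34 members with a promoter in the table (14.7%), against 4.51% of 27025 genes. The 5 were Asns, Trib3, Chac1, Aars and Herpud1. Atf6, Hyou1, Derl1 and Manf were not in the table. A match describes letters and not a bound site.

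The ATF4 targets varied widely between replicates. Asns had wildtype levels of 11.79 and 12.64 at rest and 12.62 and 12.11 under LPS, and knockout levels of 12.10 and 12.56, then 12.18 and 11.57. Chac1 had 7.60 and 8.47, then 7.996 and 7.80 in wildtype cells, and 7.71 and 8.44, then 7.66 and 7.16 in knockout cells. Basal and LPS levels of these genes overlapped in wildtype cells, and in knockout cells only Chac1 had both LPS levels below both basal ones, by a small margin.

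Trib3 had wildtype levels of 10.08 and 10.67 at rest and 10.00 and 9.76 under LPS, and knockout levels of 10.13 and 10.74, then 9.82 and 9.22. Psat1 went from 12.30 and 12.79 to 12.21 and 12.12 in wildtype cells, and from 12.18 and 12.82 to 12.06 and 11.84 in knockout cells. Ddit3 went from 9.65 and 9.45 to 9.49 and 10.19 in wildtype cells, and from 9.72 and 9.54 to 9.37 and 9.94 in knockout cells. Trib3 and Psat1 had both LPS levels below both basal levels in each channel, while those of Ddit3 overlapped.

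Asns, Trib3, Chac1 and Psat1 were higher on basal replicate 2 than on basal replicate 1 in both channels, and lower on LPS replicate 2 than on LPS replicate 1. Ddit3 went the opposite way in each case. The median absolute gap between the basal replicates was 0.59 in the wildtype and 0.61 in the knockout channel for the 5 ATF4 targets. It was 0.14 and 0.15 for the 20 chaperone and degradation genes, and 0.11 and 0.12 for all genes. The channels of one array share their spots, so these gaps are not independent of each other. The SE of the LPS response had a median of 0.25 in wildtype and 0.27 in knockout cells over the ATF4 targets, against 0.13 and 0.12 over the chaperone and degradation genes. The log2 change with LPS ran from -0.49 for Trib3 to 0.29 for Ddit3 in wildtype cells, and from -0.91 for Trib3 to 0.03 for Ddit3 in knockout cells, with adjusted p-values of 0.0706 or more.

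**Figure D2:**
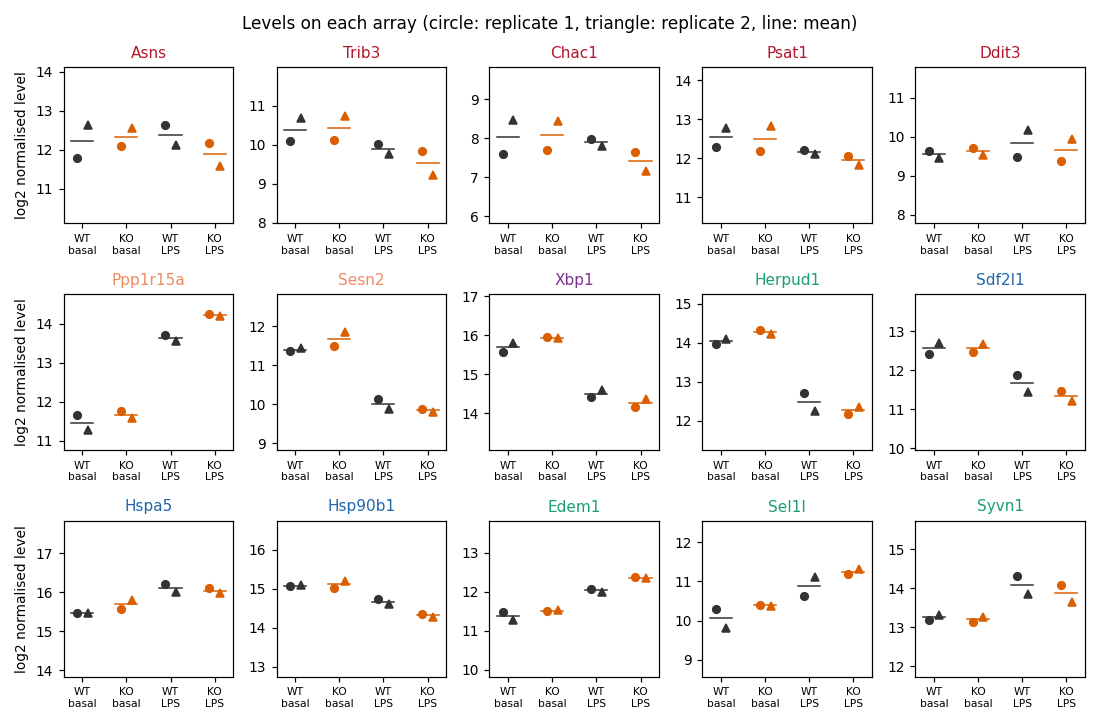
Normalised log2 levels of 15 genes on each array, with wildtype (Cy3) in black and knockout (Cy5) in orange; circles are replicate 1, triangles replicate 2, lines the mean of 2 arrays, and every panel spans the same range. From basal replicate 1 to basal replicate 2 the wildtype level moves by 0.84 for Asns, 0.88 for Chac1, 0.22 for Xbp1 and -0.37 for Ppp1r15a.

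Among the 14 chaperone genes, Dnajb11 rose in both genotypes, Hspa5 rose in wildtype cells, and Hsp90b1, Canx, Sdf2l1 and Creld2 fell in both. Promoters are shown for Hspa5, Hsp90b1 and Creld2, and for the degradation genes Syvn1 and Herpud1, because they carry ER stress response elements and yet moved in opposite directions. Windows, build and strand are as above. Capitals mark the ER stress response element (CCAAT, 9 bases, then CCACG) or, in Herpud1, the second ER stress response element (ATTGG, 1 base, then CCACG) and a CEBP-ATF core, on either strand. Hspa5 lies at chr2:34771840-34772089, plus strand, Hsp90b1 at chr10:86705445-86705694, minus strand, Creld2 at chr15:88819396-88819645, plus strand, Syvn1 at chr19:6046326-6046575, plus strand, and Herpud1 at chr8:94386179-94386428, plus strand.
Hspa5: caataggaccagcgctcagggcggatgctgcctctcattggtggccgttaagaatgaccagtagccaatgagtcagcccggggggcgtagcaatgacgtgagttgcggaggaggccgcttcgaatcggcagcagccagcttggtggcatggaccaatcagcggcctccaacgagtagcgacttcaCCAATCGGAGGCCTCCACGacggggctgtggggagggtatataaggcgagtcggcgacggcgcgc
Syvn1: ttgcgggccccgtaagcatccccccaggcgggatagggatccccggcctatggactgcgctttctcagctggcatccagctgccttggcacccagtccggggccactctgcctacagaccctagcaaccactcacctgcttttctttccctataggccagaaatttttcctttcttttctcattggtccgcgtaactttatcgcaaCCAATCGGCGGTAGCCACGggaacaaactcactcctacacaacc
Hsp90b1: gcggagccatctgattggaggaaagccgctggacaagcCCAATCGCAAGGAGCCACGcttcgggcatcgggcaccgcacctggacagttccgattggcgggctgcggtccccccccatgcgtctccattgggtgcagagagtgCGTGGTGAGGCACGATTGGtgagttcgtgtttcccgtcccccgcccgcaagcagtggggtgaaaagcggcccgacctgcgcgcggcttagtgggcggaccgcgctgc
Creld2: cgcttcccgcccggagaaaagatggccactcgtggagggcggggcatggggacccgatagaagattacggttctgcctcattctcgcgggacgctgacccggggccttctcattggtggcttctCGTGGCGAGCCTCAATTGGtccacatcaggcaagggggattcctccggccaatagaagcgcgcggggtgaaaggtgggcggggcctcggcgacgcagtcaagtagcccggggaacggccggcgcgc
Herpud1: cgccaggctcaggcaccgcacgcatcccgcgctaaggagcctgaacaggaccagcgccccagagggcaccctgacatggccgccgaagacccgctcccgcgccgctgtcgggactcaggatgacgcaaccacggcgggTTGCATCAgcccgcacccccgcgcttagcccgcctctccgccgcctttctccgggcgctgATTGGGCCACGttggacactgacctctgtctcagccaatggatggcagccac
The ER stress response element was found in 8 of 34 members (23.5%), against 0.137% of all genes: Hspa5, Hsp90b1, Pdia6, Calr, Canx, Dnajc3, Creld2 and Syvn1. The second element was found in Dnajb11 and Herpud1, 5.88% of members against 0.0444% of all genes. The core of the unfolded protein response element, TGACGTGG, was found in 0 of 34 members and in 0.714% of all genes. These 3 motifs share the half-site letters CCACG or their complement, so a base can count towards more than one of them. Of the 8 genes with the first element, 2 rose, 3 fell and 3 did not pass under LPS in wildtype cells. In knockout cells 1 rose, 3 fell and 4 did not pass.

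**Figure D3:**
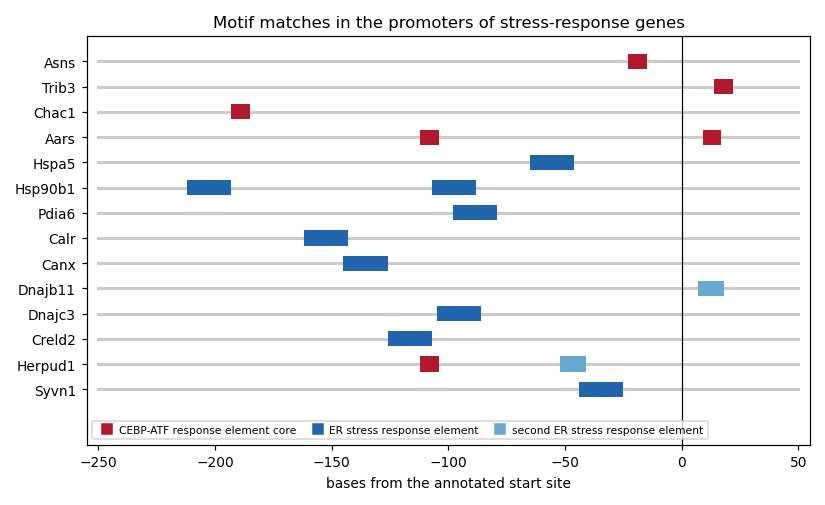
Positions of motif matches from 250 bases before to 50 bases after the annotated start site (x axis, in bases) for the 14 members with at least 1 match; red marks the CEBP-ATF core, dark blue the ER stress response element and light blue the second element. Hsp90b1 has 2 matches to the ER stress response element, and the matches of Trib3 and Dnajb11 lie after the start site.

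Hspa5 encodes BiP, the main Hsp70 chaperone of the ER, which also holds the sensors inactive. Its wildtype level was 15.47 on both basal arrays and 16.20 and 16.01 under LPS, a rise of 0.64 ± 0.11 (adjusted p = 0.0104). In knockout cells it went from 15.58 and 15.80 to 16.10 and 15.97, a change of 0.34 ± 0.13 that did not pass (adjusted p = 0.0947). The LPS levels lay above the basal levels in both channels. The difference between the responses of the genotypes did not pass either, at -0.29 ± 0.11 (adjusted p = 0.438), and the wildtype call was lost without either basal array (adjusted p up to 0.0712). Hspa5 passed in both genotypes with 75th percentile scaling, at 1.23 in wildtype and 1.07 in knockout cells.

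Dnajb11, a J-domain partner of BiP, rose by 0.76 ± 0.13 in wildtype cells (adjusted p = 0.00977) and by 0.53 ± 0.12 in knockout cells (adjusted p = 0.029). Sdf2l1, which forms a complex with the Dnajb11 protein, fell, with log2 changes of -0.89 ± 0.18 in wildtype cells (adjusted p = 0.0186) and -1.23 ± 0.15 in knockout cells (adjusted p = 0.00495). Canx, the lectin chaperone calnexin, changed by -0.66 ± 0.10 (adjusted p = 0.00841) and -0.74 ± 0.10 (adjusted p = 0.00685). The genes for Dnajb11 and Sdf2l1, whose proteins form a complex, thus changed in opposite directions. Scaled to the 75th percentile, Dnajb11 stood at 1.18 and 1.04. The Dnajb11 calls were lost without basal replicate 1, and in knockout cells also without basal replicate 2 or LPS replicate 1. The knockout Dnajb11 call was lost with processed signals and with the replicate number as a block as well. The Canx calls were lost without basal replicate 2, and the wildtype Sdf2l1 call without either basal array.

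Hsp90b1 encodes GRP94, the Hsp90 of the ER. Its log2 change was -0.41 ± 0.10 (adjusted p = 0.0318) in wildtype and -0.80 ± 0.12 (adjusted p = 0.00822) in knockout cells. Creld2, an ER-resident and secreted protein, changed by -0.52 ± 0.13 (adjusted p = 0.0307) and -0.84 ± 0.20 (adjusted p = 0.0286). The wildtype Hsp90b1 call was lost without either basal array or LPS replicate 2, and the knockout one without basal replicate 2. The Creld2 calls were lost without basal replicate 2 or LPS replicate 1, the wildtype one also without LPS replicate 2. The wildtype calls of both genes were also lost with processed signals and with the replicate number as a block. With each channel scaled to its 75th percentile the median of all genes moved to 0.35 in wildtype and 0.38 in knockout cells, Hsp90b1 in wildtype cells turned to 0.28 (adjusted p = 0.0937) and in knockout cells stood at -0.0889 (adjusted p = 0.606), and Canx (-0.14 and -0.24) and Creld2 (-0.15 and -0.50) no longer passed in either genotype.

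The other 8 chaperone genes, Pdia3, Pdia4, Pdia6, Calr, Dnajb9, Dnajc3, Manf and Hyou1, did not pass in either genotype. Their log2 changes ran from -0.42 for Pdia4 to 0.28 for Manf in wildtype cells and from -0.55 for Pdia4 to 0.13 for Dnajb9 in knockout cells. A second, dimmer probe for Pdia6, a disulfide isomerase, rose by 0.57 ± 0.12 in wildtype cells (adjusted p = 0.0214), while the probe used stood at 0.02 ± 0.13.

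The degradation genes held a steep fall and several rises. Herpud1, which helps to assemble the degradation complex at the ER membrane, went from 13.98 and 14.09 to 12.72 and 12.24 in wildtype cells and from 14.32 and 14.22 to 12.18 and 12.36 in knockout cells. The log2 changes were -1.55 ± 0.18 (adjusted p = 0.0039) and -2.0035 ± 0.12 (adjusted p = 0.00114). Edem1, a mannosidase-like protein that marks misfolded glycoproteins, went from 11.47 and 11.27 to 12.06 and 11.9996 in wildtype cells, and from 11.49 and 11.54 to 12.38 and 12.35 in knockout cells. Neither gene's basal and LPS levels overlapped.

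Edem1 rose by 0.66 ± 0.11 (adjusted p = 0.0104) and by 0.85 ± 0.10 (adjusted p = 0.00447). Syvn1, the ubiquitin ligase HRD1, rose by 0.83 ± 0.18 (adjusted p = 0.0232) and by 0.67 ± 0.18 (adjusted p = 0.0412). Both Syvn1 calls were lost with processed signals and without either basal array. The knockout Syvn1 call was also lost without LPS replicate 1 and with the replicate number as a block. The wildtype Edem1 call was lost without basal replicate 2. Syvn1 stood at 1.25 and 1.19 with 75th percentile scaling. Sel1l, the partner of HRD1, rose by 0.87 ± 0.10 in knockout cells (adjusted p = 0.00511) and stood at 0.82 ± 0.24 in wildtype cells (adjusted p = 0.0524), where the basal levels were 10.31 and 9.80 and where it passed with 75th percentile scaling at 0.89.

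Derl1 and Derl2, channel-like proteins of the same complex, did not pass on the probes used, with log2 changes from -0.10 to -0.01. A second probe for Derl1 changed by -0.69 ± 0.09 (adjusted p = 0.00493) in wildtype and -0.78 ± 0.11 (adjusted p = 0.00749) in knockout cells, so the probes of this gene disagree. Sec61b, a subunit of the channel through which proteins enter the ER, stood at -0.17 ± 0.11 and -0.15 ± 0.10. With 75th percentile scaling it turned to 0.42 and 0.51 and passed.

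At rest the genotypes differed at 1 of the 38 genes, 2.63%, against 4.87% of all genes. It was higher in the knockout, as were 3.37% of all genes, and 0 were lower, against 1.49%. In limma 7 of the 38 stood at an unadjusted p under 0.05. The share of all genes at that threshold is not given, so nothing is drawn from that count. The 1 gene was Atf4, with a log2 ratio of knockout over wildtype of 0.37 on both basal arrays (0.37 ± 0.07, adjusted p = 0.0284). Its second probe gave 0.05 and 0.25, which did not pass. The call was lost without any 1 of the 4 arrays, with processed signals, with the deposited ratios and with the mean of both probes (adjusted p up to 0.174). With ratios centred on the array median, 16 of the 38 genes were called at rest, all higher in the knockout. Of all 23570 genes, 3798 were then higher and 648 lower. The median of the 38 stood at 0.27 with that centring, and that of all genes at 0.09. The ATF4 targets had basal ratios between -0.04 and 0.12, with none past the threshold, and the chaperone and degradation genes between -0.10 and 0.34.

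Under LPS 11 of the 38 genes differed between the genotypes, 28.9%, against 12.4% of all genes. The 2 higher in the knockout make 5.26%, against 7.17% of all genes, and the 9 lower make 23.7%, against 5.23% of all genes. This balance turned with median centring, where 7 members were higher and 2 lower, beside 4619 higher and 860 lower over all genes. The lower ones were Phgdh, Asns, Chac1 and Slc3a2 on the amino acid side, and Hsp90b1, Pdia6, Calr, Dnajb11 and Sdf2l1 among the chaperones. Of the 38 genes, 26 had a ratio below 0 on both LPS arrays (68.4%, against 34.7% of all genes), and these included all 5 ATF4 targets and 13 of the 20 chaperone and degradation genes. That sign count used the loess ratios and was not repeated with median centring. With median centring the median ratio under LPS was 0.07 for the 38 genes and 0.07 for all genes.

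**Figure D4:**
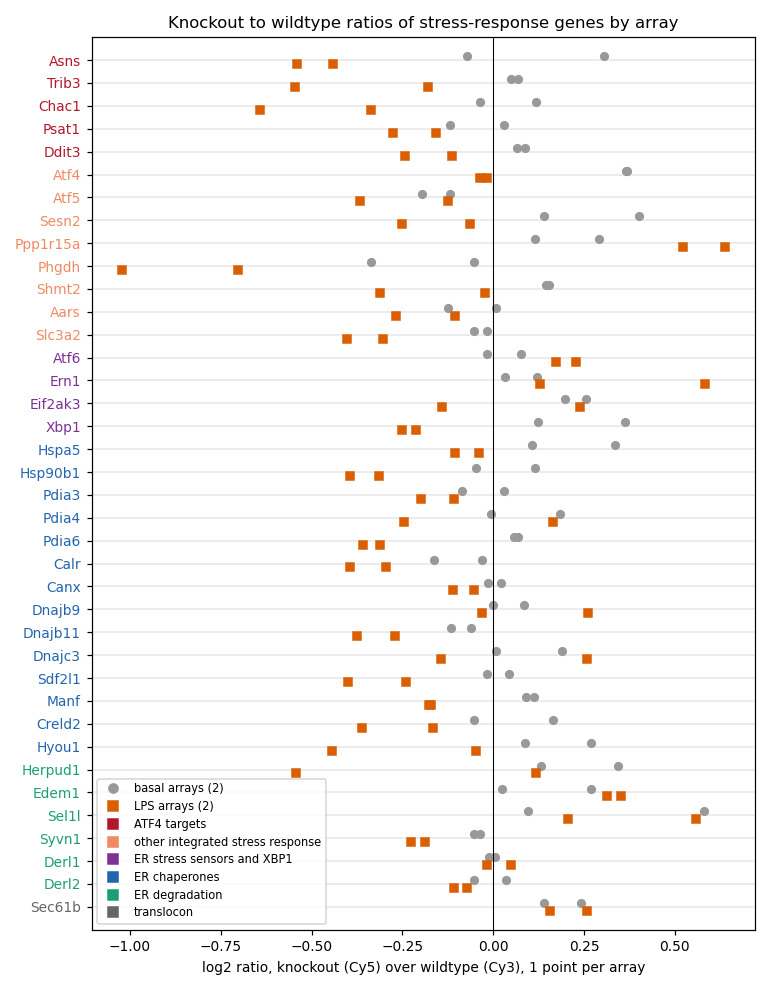
Log2 ratio of knockout over wildtype for the 38 genes, 1 point per array, with basal arrays as grey circles and LPS arrays as orange squares; gene names are coloured by role. Both LPS points of Phgdh lie farthest below 0, both those of Asns and Chac1 lie below 0, those of Ppp1r15a lie above 0, and both basal points of Atf4 lie at 0.37.

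Phgdh, the first enzyme of serine synthesis, had the most negative ratio. It was -0.34 and -0.05 at rest and -0.70 and -1.02 under LPS, with an LPS mean of -0.86 ± 0.11 (1.82-fold lower, adjusted p = 0.00447). Its second probe was also lower under LPS, at -0.70 ± 0.10 (adjusted p = 0.00635). Ppp1r15a was the most raised member, with 0.11 and 0.29 at rest and 0.52 and 0.64 under LPS (0.58 ± 0.08, 1.496-fold, adjusted p = 0.00603). Edem1 was higher by 0.33 ± 0.08 under LPS (adjusted p = 0.0467).

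Asns had ratios of 0.31 and -0.07 at rest and of -0.44 and -0.54 under LPS (-0.49 ± 0.10, adjusted p = 0.0272). Chac1 had 0.12 and -0.04 at rest and -0.34 and -0.64 under LPS (-0.49 ± 0.09, adjusted p = 0.0214). For both genes the LPS ratios lay below the basal ratios with no overlap. Trib3 (-0.36 ± 0.10, adjusted p = 0.0596), Psat1 (-0.22 ± 0.08, adjusted p = 0.117) and Ddit3 (-0.18 ± 0.07, adjusted p = 0.153) did not pass. A second, dimmer probe for Psat1 stood at -0.04 ± 0.08.

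Of the remaining lower genes, Slc3a2 stood at -0.35 ± 0.07 (adjusted p = 0.0231), and the 5 chaperone genes lay between -0.36 for Hsp90b1 and -0.32 for Sdf2l1, with adjusted p-values of 0.0242 to 0.0386. Pdia6 and Calr were among them, Calr being calreticulin, the soluble partner of calnexin. The second Pdia6 probe was lower as well, at -0.39 ± 0.08 (adjusted p = 0.028).

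These genotype calls rest on few arrays. Of the 11, 1 was kept without LPS replicate 1 and 0 without LPS replicate 2, and 2, Phgdh and Ppp1r15a, were kept with processed signals. With ratios centred on the array median instead of fitted by loess, the median of the 38 genes moved from -0.18 to 0.07, Slc3a2, Hsp90b1, Pdia6 and Dnajb11 turned to between 0.0073 and 0.14, and Asns, Calr and Sdf2l1 stayed below 0 without passing. Phgdh, Chac1, Ppp1r15a and Edem1 kept their calls.

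The difference of the knockout effect between LPS and basal, in which a constant dye effect cancels, passed for 0 of the 38 genes, against 0.403% of all genes. At an unadjusted p under 0.05 there were 18 of the 38 in limma, but the share of all genes at that threshold is not given. Without it nothing is drawn from this count. The largest differences were -0.67 ± 0.15 for Phgdh (adjusted p = 0.174) and -0.61 ± 0.14 for Asns (adjusted p = 0.194). The median difference over the 38 genes was -0.24, and it was -0.23 with median centring, while the median over all genes was -0.0022.

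Set side by side, the ATF4 targets and the chaperone and degradation genes had medians of 0.06 and 0.05 in knockout against wildtype at rest. Under LPS the medians were -0.36 and -0.16. Their differences between conditions had medians of -0.42 and -0.20. On single arrays, the median ratio of the ATF4 targets minus that of the chaperone and degradation genes was 0.04 and -0.02 at rest, and 0.01 and -0.45 under LPS. The gap under LPS was thus present on LPS replicate 2 and not on LPS replicate 1. For LPS against basal the medians were -0.14 and -0.02 in wildtype cells and -0.55 and -0.23 in knockout cells. The wildtype gap of -0.11 moved to -0.53 without basal replicate 1 and to 0.25 without basal replicate 2, which leaves its sign undecided on these arrays. These comparisons share arrays, and no p is given for a list median.

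Other genes of the same pathways were taken from lists chosen by function, of which 156 of 160 were measured. Under LPS 31 rose and 59 fell in wildtype cells, and 26 rose and 67 fell in knockout cells. These were 19.9% and 37.8% in wildtype cells, against 18.3% and 23.5% of all genes, and 16.7% and 42.9% in knockout cells, against 19.0% and 22.8%. With 75th percentile scaling 51 rose and 44 fell in wildtype cells and 47 rose and 50 fell in knockout cells. Of all 23570 genes, that scaling gave 10921 higher and 4197 lower in wildtype cells, and 11075 higher and 4148 lower in knockout cells. Without basal replicate 1 the counts were 18 and 35 in wildtype and 16 and 33 in knockout cells, and without basal replicate 2 they were 22 and 27, and 14 and 26. Of the 20 genes for aminoacyl-tRNA synthetases and tRNA export, which charge tRNAs and are in part ATF4 targets, 14 fell (70%) and 2 rose (10%) in each genotype. With 75th percentile scaling 11 fell and 3 rose in each, and without basal replicate 2 those that fell were 7 in wildtype and 8 in knockout cells, and without basal replicate 1 they were 10 and 9. Iars, for isoleucine, changed by -1.83 ± 0.19 in wildtype cells (adjusted p = 0.00281) and -2.15 ± 0.16 in knockout cells (adjusted p = 0.00179). Of 9 genes of the mitochondrial unfolded protein response 6 fell in each genotype (66.7%), also with that scaling, but 3 fell in each without either basal array. Hspd1, the mitochondrial chaperonin, changed by -1.19 ± 0.13 (adjusted p = 0.00297) and -1.51 ± 0.19 (adjusted p = 0.00583).

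The eIF2alpha kinase PKR, encoded by Eif2ak2, which senses double-stranded RNA, rose by 3.35 ± 0.17 in wildtype cells (adjusted p = 0.00064) and by 3.52 ± 0.14 in knockout cells (adjusted p = 0.000613). Ppp1r15b, the constitutive counterpart of GADD34, rose by 2.07 ± 0.15 (adjusted p = 0.00122) and by 2.20 ± 0.12 (adjusted p = 0.000967). Both subunits that direct the phosphatase to eIF2alpha thus rose, while the PERK gene fell and the PKR gene rose. Nupr1, a stress-induced chromatin protein, rose by 3.03 ± 0.12 (adjusted p = 0.000457) and by 2.87 ± 0.10 (adjusted p = 0.000578).

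Between the genotypes, 4 of the 156 differed at rest and 20 differed under LPS, of which 18 were lower in the knockout. These were 2.56% and 12.8%, against 4.87% and 12.4% of all genes. By direction, 5.23% of all genes were lower and 7.17% were higher in the knockout under LPS. With median centring 37 were higher and 1 lower at rest, and 25 were higher and 4 lower under LPS. Of all 23570 genes, that centring gave 3798 higher and 648 lower at rest, and 4619 higher and 860 lower under LPS. With either LPS array left out, 1 was called under LPS. Slc1a4, a transporter of alanine, serine and cysteine, was higher in the knockout in both conditions, with ratios of 0.98 and 0.69 at rest (0.84 ± 0.09, adjusted p = 0.00384) and 1.06 on both LPS arrays (1.06 ± 0.09, adjusted p = 0.00111). Gars, for glycine, was lower under LPS at -0.44 ± 0.08 (adjusted p = 0.0213), a call lost in 5 of 12 alternatives, with -0.0844 (adjusted p = 0.486) under median centring. In the difference between conditions 1 of the 156 passed, beside 0.403% of all genes. It was Bcl2l11, which encodes the apoptosis inducer BIM, with ratios of -0.21 and -0.05 at rest and 0.68 and 0.73 under LPS, a difference of 0.83 ± 0.10 (adjusted p = 0.0372). That call was lost in 8 of 14 alternatives, with adjusted p up to 0.32.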

How the data were processed

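Scanner files of 4 two-colour Agilent arrays were used. They hold deposited spot intensities. The file headers name Agilent Feature Extraction 11.5.1.1, and the submitters' processing notes name version 9.3.2.1. The headers give 1 slide and 1 scan, so batches could not be modelled. The deposited log10 ratios of the spots were not used further. Log2 ratios (knockout over wildtype) from the authors' deposited value table were an alternative. Their column medians were 0.016, 0.034, 0.029 and 0.031, and the origin of their small constant offset stays unknown.

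Median foreground intensities were background-corrected with normexp (offset 50), normalised by loess within arrays (weight 0 for control and outlier spots), and set across arrays by Aquantile. Spots of a probe were averaged. Probes well above background in at least 1 channel on 2 or more arrays were kept (28635), and the brightest kept probe stood for a gene. Accessions were named through a RefSeq table of GRCm38.p6. The file headers name mm9 as the design build, so no array coordinates are given. The 5 comparisons were fitted in limma 3.58.1 (R 4.3.3) with eBayes and Benjamini-Hochberg adjustment over 23570 genes, two-sided, threshold 0.05. Ratios shared 1 fit, and each channel's levels had a fit. The fits were tested on simulated data. The number of arrays limits the precision.

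Members and lists were chosen with earlier results of these data known. Every member may be named. Of the other pathway genes, those with the 3 largest changes past the threshold per list and comparison may be named. The promoters are RefSeq's. Alternatives were processed signals, median centring or 75th percentile scaling, the deposited ratios, 2 other filters on dim probes, the mean over probes, an intensity trend, all probes adjusted together, leaving out each array, and a replicate block. Same-numbered arrays did not deviate together (r = -0.161 for ratios), so the numbers are not taken to pair them.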

Additional observations from a re-analysis of the deposited data

Results flagged for a closer look

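Of the 38 genes, 10 had a knockout to wildtype ratio above 0 on both basal arrays and below 0 on both LPS arrays, while 0 of the 38 went the other way. Over all genes these patterns were found in 4.51% and 4.38%. The differences between the conditions were -0.42 for Trib3, -0.25 for Ddit3, -0.39 for Atf4, -0.43 for Sesn2, -0.32 for Shmt2, -0.48 for Xbp1, -0.29 for Hspa5, -0.40 for Pdia6, -0.28 for Manf and -0.42 for Hyou1 on the log2 scale. None of the 10 passed in the limma test of the difference itself. The second probe of Atf4 had ratios of 0.05 and 0.25 at rest and 0.29 and -0.06 under LPS, so it did not show the pattern. The second probe of Pdia6 did show it. The sign of a ratio depends on how it is centred. With processed signals 11 genes showed the pattern, and with median centring 6 did, and 0 showed the opposite one in either case.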

How the results depend on the processing

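Counts of called members moved with scaling, with signal processing and with single arrays. In knockout against wildtype at rest, the 1 call became 0 with processed signals, the deposited value table or the mean over probes, 16 (all higher) with median centring, and 0 without any array. Under LPS the 11 calls became 2 with processed signals, 2 with the value table, 9 with median centring (2 higher and 9 lower became 7 and 2), and 0 to 11 without 1 array. For LPS against basal, the 16 wildtype calls ranged from 7 to 17 without 1 array, and the 16 knockout calls from 8 to 16, lowest without basal replicate 2 in both. The median gap between ATF4 targets and ER genes was -0.0609 at rest with median centring, and for LPS in wildtype cells it ranged from -0.53 to 0.25 without 1 array. Values that turned sign and passed the test before or after, all with median centring or 75th percentile scaling, were 0.29 for Derl2 at rest, and under LPS 0.42 for Atf4, 0.0073 for Slc3a2, 0.48 for Hspa5, 0.0513 for Hsp90b1, 0.14 for Pdia6 and 0.0201 for Dnajb11 in knockout against wildtype. For LPS against basal they were 0.28 for Hsp90b1 and 0.42 for Sec61b in wildtype and 0.51 for Sec61b in knockout cells. That scaling raised the counts over all genes from 1147 to 4446 at rest (795 higher and 352 lower became 3798 and 648), from 2922 to 5479 under LPS (1690 and 1232 became 4619 and 860), from 9851 to 15118 for LPS in wildtype (4304 and 5547 became 10921 and 4197) and from 9853 to 15223 in knockout cells (4481 and 5372 became 11075 and 4148). Counts over all genes fell to 704 at rest with the strictest filter, to 708 without basal replicate 1, to 1722 under LPS with processed signals, to 515 and 410 without an LPS array, and, without basal replicate 2, to 5194 in the wildtype and 4075 in the knockout response to LPS. For the difference between conditions, 95 genes became 4 to 198 without 1 array, 6 with processed signals, 8 with the value table, 19 with the strictest filter, 60 with an intensity trend and 228 with median centring. The causes were not tested.

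With the replicate number as a block, 0 members were called in the difference and 14 in each LPS response, and 58 genes in the difference overall. Same-numbered arrays deviated at r = -0.161 for ratios, and with crossed numbers, an alternative chosen after seeing the data, 1, 19 and 22 members were called.

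In wildtype cells the LPS calls of Sesn2, Ppp1r15a, Atf6, Eif2ak3, Xbp1 and Herpud1 held in all 13 alternatives. In knockout cells those of Sesn2, Ppp1r15a, Eif2ak3, Xbp1, Sdf2l1, Herpud1, Edem1 and Sel1l did.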
